A study of Homo sapiens with 6 samples.

Results

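Short annotated productive isoforms are spliced transcripts of less than 1000 nt that carry an Ensembl transcript identity, belong to a protein-coding gene and hold a coding frame predicted to give protein. They were chosen from the isoform table by these 4 features, none of which is a measured level, and the spliced length was the sum of the exon blocks of each isoform model. The table held 1330 such isoforms of 872 genes among 13208 isoforms, against 3983 annotated productive isoforms of 1000 nt or more. Their length ran from 272 nt up to the limit with a median of 728 nt. A single member was found for 574 genes, and 298 genes had 2 to 8, which share most of their sequence.

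RNA was collected from whole cells (WC) of K562, a human chronic myelogenous leukaemia line that can be driven towards erythroid cells, and from the extracellular vesicles (EVs) that the same untreated, wild-type cultures released into medium with vesicle-depleted serum. Each group held 3 biological replicates, read as nanopore PCR-cDNA primed at poly(A) tails, and K562 is an established line grown in suspension, so all 6 libraries share the genotype of this culture. EVs were isolated by centrifugation, concentration and size exclusion, and RNA outside vesicles that co-purifies with them was not separated here. The WC libraries held 2480560, 3178211 and 2694992 counted reads and the EV libraries 881338, 560157 and 580852, and between 21997 and 23874 genes had a count in WC against 12891 to 14263 in EVs. All 14 erythroid and myeloid markers of K562 had reads in both groups, with a summed level of 594.5 to 673 CPM in WC and 804 to 952 CPM in EVs, where CPM are reads scaled to a common library size with TMM factors. The sum does not describe each marker. HBG2 had 44, 39 and 28 reads in WC and 138, 85 and 116 in the shallower EV libraries, while TFRC had 386, 607 and 511 in WC and 51, 30 and 27 in EVs. Platelet and hepatocyte markers were at 0, and summed levels of T cell markers were 24.1 to 30.4 CPM in WC and 27.4 to 50.9 CPM in EVs. In EVs CD3D was the only T cell marker with reads (20, 22 and 16). Epithelial markers, of which 1 of 3 had reads, summed to 58.1 to 95.7 CPM in WC and 23.3 to 48.6 CPM in EVs, and their part in the results was not tested.

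The isoform table gives a single level for each isoform, the authors' mean over all 6 libraries, and no value by library. Members were therefore compared through the raw counts of their genes. The 786 genes in which short annotated productive isoforms held at least 50% of the isoform level form the set described below, and in 445 of the 872 genes they held all of it. Of the 786 genes 616 passed the filter on low counts and were tested, and 170 did not, of which 37 had no read in any library and 18 lie on alternate sequences outside the primary chromosomes. TMM scaling takes most genes as equal between groups, and genes are said to have risen or fallen in EVs at an adjusted p under 0.05 by the quasi-likelihood test of edgeR. Genes are called enriched at a log2 fold change of at least 2 in size and an adjusted p of at most 0.01. In pooled vesicles, more vesicles with an mRNA and more of it per vesicle cannot be told apart.

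Messenger RNAs of this size encode small proteins such as ribosomal proteins, subunits of the respiratory chain, globins, metallothioneins and S100 proteins. Most ribosomal protein mRNAs, and those of some translation factors, begin with a 5′ terminal oligopyrimidine (TOP) tract, a C at the cap followed by an unbroken run of C and T, through which growth signalling controls their translation. Extracellular vesicles bud from endosomes or from the plasma membrane and carry RNA of the cell that made them, much of it short.

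The start sequences below show genes with and without such a start among those described in the following paragraphs. They are the initial 20 bases of the RefSeq transcript start in GRCh38.p14, on the transcribed strand, with the leading run of C and T in capitals, and for each gene the region and strand follow its name. The upper 10 genes carry the TOP-like start, defined here as C followed by at least 4 bases of C or T, and except for LSM8 all rose in EVs. The lower 10 lack it at the start printed, among them the ribosomal protein genes RPS29 and RPL10, which rose as well. A single RefSeq start was taken for each gene symbol, and other starts of a gene were not examined. These genes are examples, and their calls do not measure the set. Of the non-ribosomal genes compared below, 14 of 22 with the run rose and 0 fell, and 116 of 375 without it rose and 32 fell.
RPS27, chr1:153990762-153990781, plus strand: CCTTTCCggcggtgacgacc
RPL36, chr19:5690295-5690314, plus strand: CCTTCCgccacggccgtctc
RPS12, chr6:132814569-132814588, plus strand: CTCTTTCCCTgccgccgccg
RPS3, chr11:75399518-75399537, plus strand: CCTTTCCTTTCagcggagcg
RPS13, chr11:17077648-17077667, minus strand: CCTTTCgttgcctgatcgcc
RPL41, chr12:56116633-56116652, plus strand: CTCTCggccttagcgccatt
TOMM7, chr7:22822830-22822849, minus strand: CCTTTCCCTTTCggattccc
UQCRH, chr1:46303698-46303717, plus strand: CTTCTTgatcctgaactggg
ATP5F1E, chr20:59032316-59032335, minus strand: CTTCCTgcggctgaaccgcc
LSM8, chr7:118184164-118184183, plus strand: CTTTCagttctgcttgctgt
RPS29, chr14:49598691-49598710, minus strand: Tggcagcggtggttgtttct
RPL10, chrX:154398065-154398084, plus strand: aaatatacgtctgtcacagt
MT2A, chr16:56608584-56608603, plus strand: accacgcctcctccaagtcc
FTL, chr19:48965309-48965328, plus strand: gcagttcggcggtcccgcgg
S100A4, chr1:153545787-153545806, minus strand: attcttcccctctctacaac
S100A11, chr1:152036985-152037004, minus strand: gaggagaggctccagacccg
G0S2, chr1:209675412-209675431, plus strand: Tgccagcggcggagtctcca
CD63, chr12:55728990-55729009, minus strand: agagagccccggagccgcgg
CYBA, chr16:88651034-88651053, minus strand: agtgcgcgcctagcagtgtc
NMU, chr4:55636774-55636793, minus strand: acagttgaaccaacactgcc

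Most short mRNAs that changed were higher in EVs on the TMM scale. Of the 616 genes tested 274 rose and 40 fell, beside 22.8% of all 8716 genes that rose and 21.4% that fell, which makes 44.5% and 6.49% of the short set. Enrichment was called in EVs for 26 of the 616 and in WC for 4, while 4.53% of all genes were called so in EVs and 5.93% in WC. The median log2 fold change of the short set was 0.43, that of all genes -0.13, and that of the 2604 genes led by annotated productive isoforms of 1000 nt or more -0.21, of which 342 rose and 565 fell. A gene could pass the filter through its EV libraries alone, and with every gene that had a read kept the median of the short set was 0.206.

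These directions are relative to the TMM scale. When libraries were scaled by total counts instead, the median of all genes moved by -0.65, so that 12.2% of all genes rose and 51.6% fell. On that scale 106 of the 616 short genes rose and 198 fell, with a median of -0.22, against 115 and 1580 of the 2604 longer genes and a median of -0.86. Changes are given below on the TMM scale, with the total-count values beside each list whose median turned.

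Most of the largest differences were found in genes with low gene counts for their isoform level. For 81 of the 616 genes the gene count was below 50% of the authors' level for the isoforms of the same gene, with a median of 17.4%, and 80 of these 81 genes share exon bases with another annotated gene. These 81 genes held 23 of the 26 genes enriched in EVs, 60 of them rose, 1 fell, and their median log2 fold change was 1.36. Only 39 of the other 535 genes share exon bases with another gene. Among genes of longer isoforms 101 of 2604 (3.88%) were counted below 50%, against 13.1% of the short set. The split at 50% was chosen after these values were seen, and the part of counting in the fold changes was not tested.

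RPL26, a protein of the large ribosomal subunit, had 12.7, 9.70 and 9.60 CPM in WC and 85, 150.3 and 109.6 CPM in EVs, a log2 fold change of 3.40 (SE 0.24), but its gene count was 3.13% of its isoform level and 65.6% of its exon bases lie in another gene. RPS3A of the small subunit had 26.1, 26.8 and 31.4 CPM in WC and 299, 296 and 315 CPM in EVs, with a gene count of 8.27% of the isoform level. NME1, a nucleoside diphosphate kinase, had the largest log2 fold change of the 81 genes, 4.06 (SE 0.45), on 15 reads in WC and 40 in EVs and a gene count of 9.48%. All 3 were higher in every EV library than in any WC library, yet the counts compared reached less than 10% of the isoform level of each. TPT1, a translationally controlled tumour protein, rose by 2.80 with a gene count of 18.5%. The 535 genes counted at 50% or more are called well-counted genes below, and further values are given for them unless stated.

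**Figure D1:**
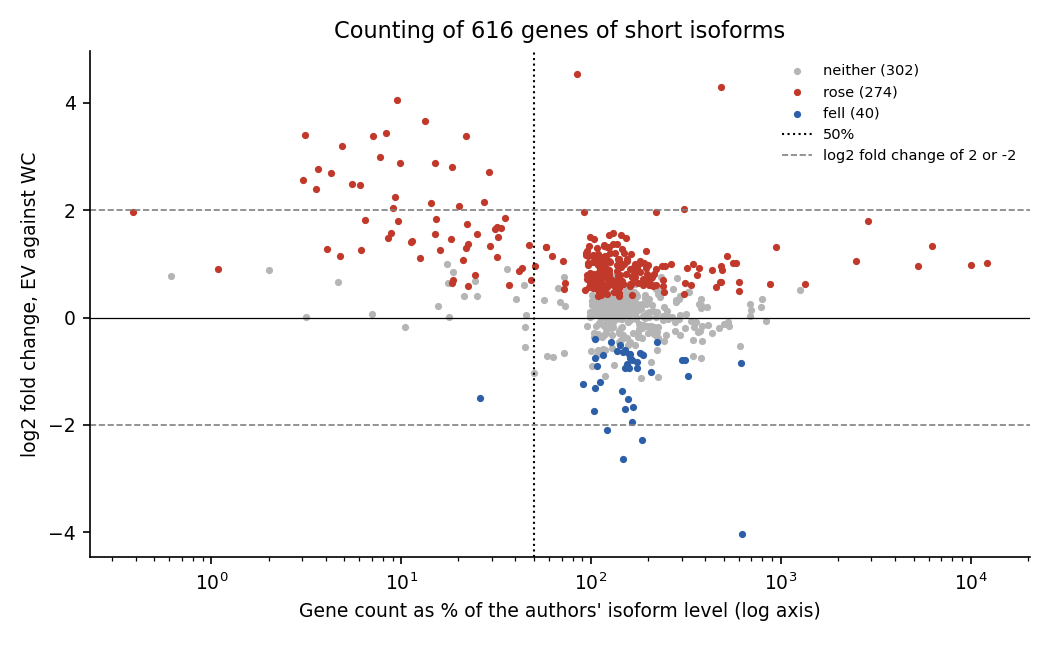
Log2 fold change in EVs against WC (vertical axis, TMM scale) against the gene count as a percentage of the authors' isoform level (horizontal log axis) for the 616 tested genes, coloured by call. Of the 26 genes enriched in EVs 23 lie left of the dotted line at 50%.

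Within the short range the share of mRNAs that rose in EVs decreased from bin to bin. Of the well-counted genes 214 rose and 39 fell, and 282 passed neither test, with a median log2 fold change of 0.35. Below 400 nt 15 of 20 genes rose and 0 fell (median 0.97). From 400 to under 600 nt 91 of 134 rose and 3 fell (median 0.72), and from 600 to under 800 nt 76 of 181 rose and 12 fell (median 0.36). From 800 to under 1000 nt only 32 of 200 (16.0%) rose, below the 22.8% of all genes, while 24 fell and the median was 0.08.

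The same order was seen without ribosomal proteins, where the medians of the 4 length bins were 0.64, 0.61, 0.31 and 0.06, and the genes that rose numbered 8 of 13, 67 of 110, 56 of 161 and 26 of 194. Under total-count scaling the 4 medians were 0.30, 0.06, -0.30 and -0.57 with ribosomal proteins and -0.02, -0.04, -0.34 and -0.60 without them, where 3, 19, 5 and 2 genes rose and 3, 24, 62 and 106 fell. Across the 535 genes Spearman's rho between model length and log2 fold change was -0.44, and it was -0.13 across 2503 well-counted genes of longer isoforms. These correlations describe genes of the same 6 libraries, which are not independent replicates. Coding length and mean CPM were also correlated with the fold change (rho -0.25 and 0.45), and mean CPM includes the EV libraries. The parts of these features were not separated. Within 50 nt below the limit of 1000 nt 6 of 61 genes rose and 8 fell, and within 50 nt above it 12 of 47 rose and 3 fell.

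**Figure D2:**
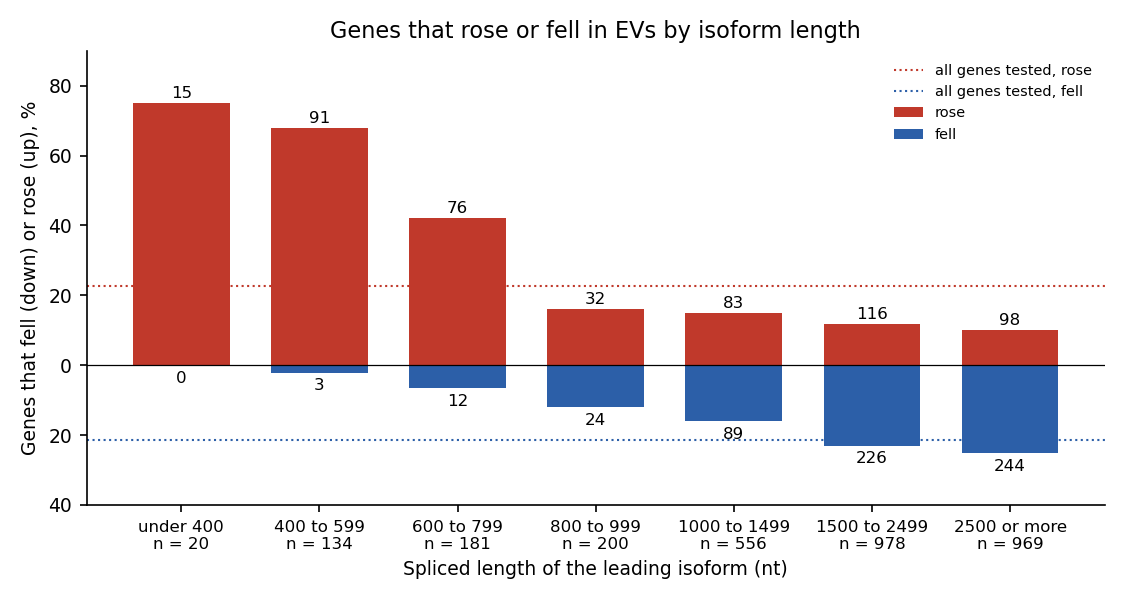
Percentage of well-counted genes that rose (upward bars) or fell (downward bars) in EVs by the spliced length of the leading isoform, with gene numbers at the bars and dotted lines for all 8716 genes tested, on the TMM scale. The share that rose drops from 75% below 400 nt to 16% at 800 to under 1000 nt, and the longer bins continue at lower values.

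The model length is not always the length in the annotation. Of the 1304 members with a length in GENCODE v44 894 were below 1000 nt there too, 410 were longer, and 619 lay within 50 nt of the model. Among well-counted genes whose leading isoform is short in both, 139 of 327 rose and 29 fell (median 0.37), and among 205 genes whose annotated transcript is longer 74 rose and 10 fell (median 0.31). RPL10, a protein of the large ribosomal subunit, has a model of 759 nt for an annotated transcript of 2164 nt.

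The highest folds among well-counted genes belonged to mRNAs outside the ribosome. MT2A, a metallothionein that binds zinc and copper and is induced by metals, led the well-counted genes at 379 nt, and HBG2, a fetal globin that K562 cells express, followed at 546 nt. COMMD1, which takes part in copper and endosomal trafficking, was the only other well-counted gene enriched in EVs. All 3 had every EV library above every WC library.

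MT2A had 11.7, 9.45 and 7.27 CPM in WC and 173, 243 and 251 CPM in EVs, a log2 fold change of 4.54 (SE 0.23, edgeR adjusted p = 2.47e-14), from 96 WC reads and 341 EV reads although the EV libraries were the shallower ones. HBG2 had 15.1, 9.96 and 8.14 CPM in WC and 189, 197 and 265 CPM in EVs, a log2 fold change of 4.3 (SE 0.23, edgeR adjusted p = 1.04e-13). HBG2 and HBG1 are near-identical copies, 72% of the exon bases of HBG2 lie in another annotated gene, and its gene count was 481% of its isoform level, so its value is uncertain. COMMD1, at 695 nt, had 9.96, 14.3 and 11.6 CPM in WC and 52.1, 39.3 and 54.8 CPM in EVs, a log2 fold change of 2.02 (SE 0.26, edgeR adjusted p = 4.86e-07). HBG1, named after its value was seen, had 110, 62.3 and 80.9 CPM in WC and 100.1, 171 and 159.8 CPM in EVs, so that the groups overlapped, and rose by 0.75 on the log2 scale, but its short isoform held only 14.04% of its isoform level. The theta globin HBQ1, also named afterwards, was the second well-counted globin and rose by 0.74 (SE 0.28). HBZ had a gene count of 4.85% and HBA2 of 6.16% of the isoform level, and their log2 fold changes were 3.20 and 1.26. The call of HBA2 was lost without WC replicate 1, EV replicate 2 or EV replicate 3 (edgeR adjusted p = 0.0518, 0.0601 and 0.087).

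**Figure D3:**
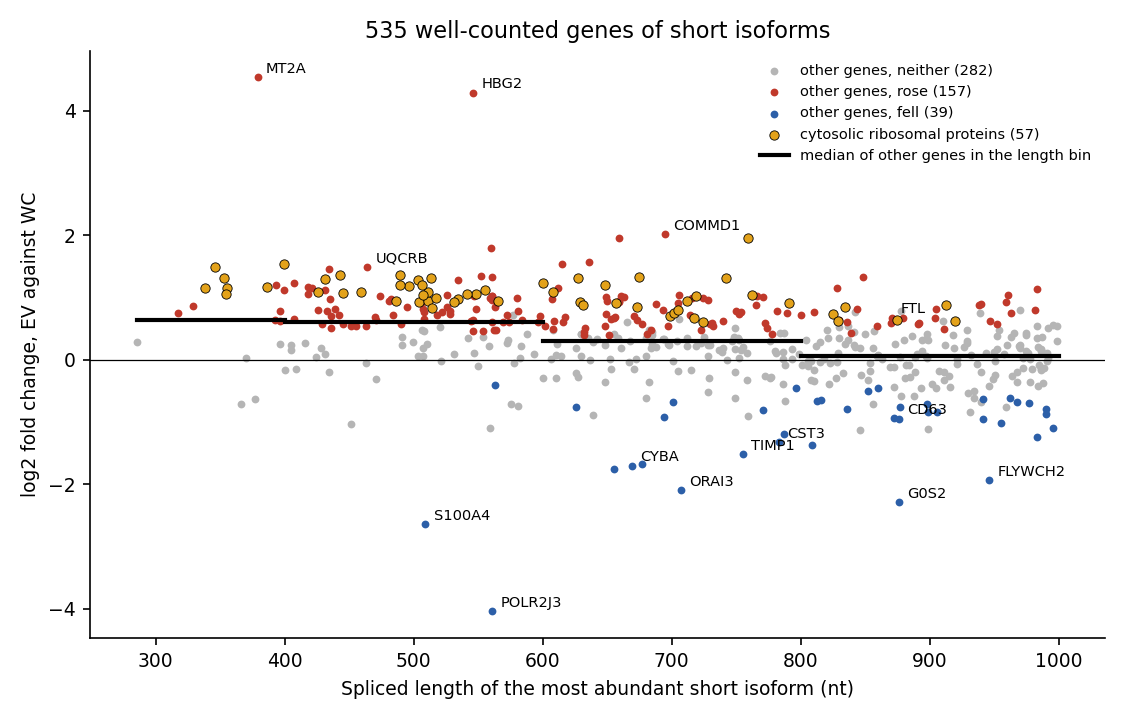
Log2 fold change in EVs against WC (vertical axis, TMM scale) against spliced length in nt (horizontal axis) for the 535 well-counted genes, coloured by call, with the 57 cytosolic ribosomal protein genes in yellow and bars at the median of the other genes in each length bin. Ribosomal proteins lie above the medians at all lengths, and both rising and falling genes are found at 800 to under 1000 nt.

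All 57 well-counted cytosolic ribosomal protein mRNAs rose in EVs, at every length. Their log2 fold changes ran from 0.62 to 1.96 with a median of 1.06, and by length bin the medians were 1.18, 1.09, 0.94 and 0.69. In the longest bin, where 26 of 194 other genes rose, 6 of 6 ribosomal protein genes did. Under total-count scaling 40 of the 57 still rose, 0 fell and the median was 0.39. Many of these genes have processed pseudogene copies to which reads could also be assigned, and the list is 1 of 24 gene lists written for such small proteins.

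RPS27, a small-subunit protein with a zinc finger, had 2399.5, 2485 and 2290.5 CPM in WC and 5727, 7054 and 7321 CPM in EVs, a log2 fold change of 1.49 (SE 0.12, edgeR adjusted p = 4.26e-10). RPL36 of the large subunit had 1167, 1074 and 1046 CPM in WC and 3418, 3025 and 3114 CPM in EVs, a log2 fold change of 1.54 (SE 0.13). RPL41, whose coding frame is only 78 nt long, had 4918, 4716 and 4489.6 CPM in WC and 7739, 11116 and 11298 CPM in EVs, a log2 fold change of 1.09 (SE 0.13). In each of the 3 genes the lowest EV library lay above the highest WC library. RPL10 had the highest fold of the well-counted ribosomal proteins, with 645, 490.1 and 461 CPM in WC and 2191, 1994 and 2029.5 CPM in EVs (log2 fold change 1.96, SE 0.14, edgeR adjusted p = 4.45e-11), and 9.75% of its exon bases lie in another gene.

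Many short nuclear-encoded mitochondrial mRNAs rose as well, on the TMM scale. Of 41 genes of the respiratory chain and ATP synthase 24 rose, 1 fell and the median was 0.54, but under total-count scaling 6 rose, 12 fell and the median was -0.13. Of 26 genes with the symbols of mitochondrial ribosomal proteins 12 rose and 0 fell (median 0.48), against 0 and 5 with a median of -0.18 under total-count scaling. Of 6 genes of mitochondrial import 4 rose and 0 fell (median 0.71), and 1 rose and 1 fell by total counts, with a median of 0.05. Within the respiratory chain 18 of 22 genes of 400 to under 600 nt rose, and 4 of 13 genes of 600 to under 800 nt did while 1 fell. At these lengths 67 of 110 and 56 of 161 of all well-counted genes outside the cytosolic ribosomal list rose. Over all lengths 157 of these 478 genes rose (32.8%) and 39 fell (8.16%), the share to set beside each list here and below.

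UQCRB, a subunit of complex III, had 371, 377 and 386 CPM in WC and 793, 1249 and 1178 CPM in EVs, a log2 fold change of 1.5 (SE 0.16, edgeR adjusted p = 2.21e-08). ATP5F1E, the epsilon subunit of ATP synthase, had 822, 744 and 709.7 CPM in WC and 1480.1, 1825 and 2068 CPM in EVs, a log2 fold change of 1.24 (SE 0.14). TOMM7, a small subunit of the outer-membrane import pore, had 418, 359 and 349 CPM in WC and 871, 1062 and 1182 CPM in EVs, a log2 fold change of 1.47 (SE 0.15). These 3 stayed clear of overlap between groups. UQCRH of complex III (0.84), ROMO1 of the inner membrane (0.87), MRPS21 (0.55) and MRPS36 (0.47) rose by less on the log2 scale. The last 2, placed by symbol in the mitochondrial ribosomal list, turned to -0.105 and -0.188 by total counts. By total counts UQCRH (0.18) and ROMO1 (0.21) lost their calls. MRPS21 also lost its call without WC replicate 2 or 3 or EV replicate 2 or 3 (edgeR adjusted p 0.0529 to 0.0907), and MRPS36 without any single library except EV replicate 1 (0.0618 to 0.161) and under DESeq2 (0.105). COX19, a copper chaperone for cytochrome oxidase, was the member that fell, by 0.68 on the log2 scale, and like COX5A (-0.36) and SDHB (-0.09), which passed neither test, it was chosen after its value was seen.

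Short mRNAs of the spliceosome and of RNA polymerases showed the same direction on the TMM scale. Of 13 genes of spliceosomal snRNP and Sm-like proteins 10 rose and 0 fell (median 0.59), and under total-count scaling 1 rose, 1 fell and the median was -0.06. SNRPD2, a core Sm protein of 705 nt, had 529, 462 and 419 CPM in WC and 748, 944 and 982 CPM in EVs, a log2 fold change of 0.92 (SE 0.15, edgeR adjusted p = 1.6e-05). SNRPG, another Sm protein, rose by 0.73 on the log2 scale, and by total counts both lost their calls (0.26 and 0.06). LSM8 of the nuclear Lsm ring, with a TOP-like start, had 233, 229 and 222 CPM in WC and 226, 282 and 310.5 CPM in EVs, so that the groups overlapped (0.25, edgeR adjusted p = 0.226). Of 11 small RNA polymerase subunits and general factors 6 rose and 0 fell (median 0.49), and by total counts 1 rose, 2 fell and the median was -0.16. POLR2L, shared by the nuclear RNA polymerases, had 187, 149 and 135 CPM in WC and 366, 363 and 349 CPM in EVs, a log2 fold change of 1.20 (SE 0.17).

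Protein turnover, folding and cytoskeleton genes were divided. Of 10 proteasome genes 2 rose and 0 fell (median 0.14, and 1 rose and 5 fell with -0.51 by total counts). The assembly factor POMP, at 559 nt, had 266, 266 and 264 CPM in WC and 473, 534 and 587 CPM in EVs (log2 fold change 1.00, SE 0.15), and the core subunit PSMB1 rose by 0.58. Of 8 ubiquitin conjugation genes 4 rose and 0 fell (median 0.63, and 2 rose and 2 fell with -0.03 by total counts). UBL5, a ubiquitin-like protein of 399 nt, had 284, 250.4 and 194 CPM in WC and 433, 550.5 and 616 CPM in EVs (log2 fold change 1.13, SE 0.17), whereas the conjugating enzyme UBE2L3 differed by 0.19 (edgeR adjusted p = 0.298). Of 7 chaperone genes 2 rose and 0 fell (median 0.44, and 0 rose and 1 fell with -0.22 by total counts), and the 2 with the highest CPM, cyclophilin PPIA (0.30) and the heat shock protein HSPB1 (0.32), passed neither test. Of 5 actin and myosin regulators 2 rose and 0 fell (median 0.36, and 1 rose and 2 fell with -0.30 by total counts), while thymosin TMSB4X, which binds actin monomers, had 1382, 1311 and 1075 CPM in WC and 1137, 1101 and 1011 CPM in EVs (-0.21, edgeR adjusted p = 0.21). By total counts TMSB4X fell (-0.87).

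Among the lists of secretion, the endolysosomal membrane and translation, only those of ER targeting and of the vacuolar ATPase held calls of both directions. Of 11 genes of ER targeting, signal peptidase and glycosylation 5 rose and 1 fell (median 0.23), and by total counts 0 rose and 5 fell (median -0.41). SRP14 of the signal recognition particle had 285, 290.0 and 241 CPM in WC and 332, 453 and 484 CPM in EVs (log2 fold change 0.63, SE 0.17, edgeR adjusted p = 0.00322, but -0.04 by total counts). Of 6 genes of the vacuolar ATPase and lysosome 2 rose and 1 fell (median -0.10, and 0 rose and 4 fell with -0.75 by total counts), the faller being ATP6V0B, a membrane subunit of the proton pump, with 176, 154 and 141 CPM in WC and 111, 90.2 and 89.0 CPM in EVs (-0.68, SE 0.19). Of 4 genes of ESCRT and tetraspanins, proteins of vesicle budding and vesicle membranes, 0 rose and 1 fell, the tetraspanin CD63. Of 4 small GTPase genes 2 rose and 0 fell (median 0.60, and 0 rose and 1 fell with -0.05 by total counts). In the 7 genes of translation factors and the nascent chain complex only BTF3 rose (0.43, and -0.22 by total counts), a call lost without WC replicate 2 or 3 or EV replicate 1 (edgeR adjusted p 0.0707 to 0.134). EIF1, which selects the start codon, had 1984, 1925 and 1816 CPM in WC and 1746, 1579.7 and 1840.0 CPM in EVs (-0.15, edgeR adjusted p = 0.353). By total counts EIF1 fell (-0.81).

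The remaining lists held few well-counted genes. Of 7 small proteins of the cell cycle and kinetochore 3 rose and 0 fell (median 0.44, and 0 rose and 2 fell with -0.21 by total counts), and PTTG1, the securin that holds back sister separation, had 375, 359 and 337 CPM in WC and 281, 391 and 390.4 CPM in EVs (-0.02). By total counts PTTG1 fell (-0.69). Of 3 histone genes 2 rose and 0 fell, but 0 rose and 1 fell by total counts. Of 4 zinc finger genes 0 rose and 1 fell, ZNF706, by 0.45 on the log2 scale (edgeR adjusted p = 0.0849 without EV replicate 3), and the median of the list was 0.29, or -0.35 by total counts. The chromatin protein BANF1, which binds DNA at the nuclear rim, was the only well-counted gene of its list and differed by 0.24 (edgeR adjusted p = 0.28, and -0.41 by total counts).

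**Figure D4:**
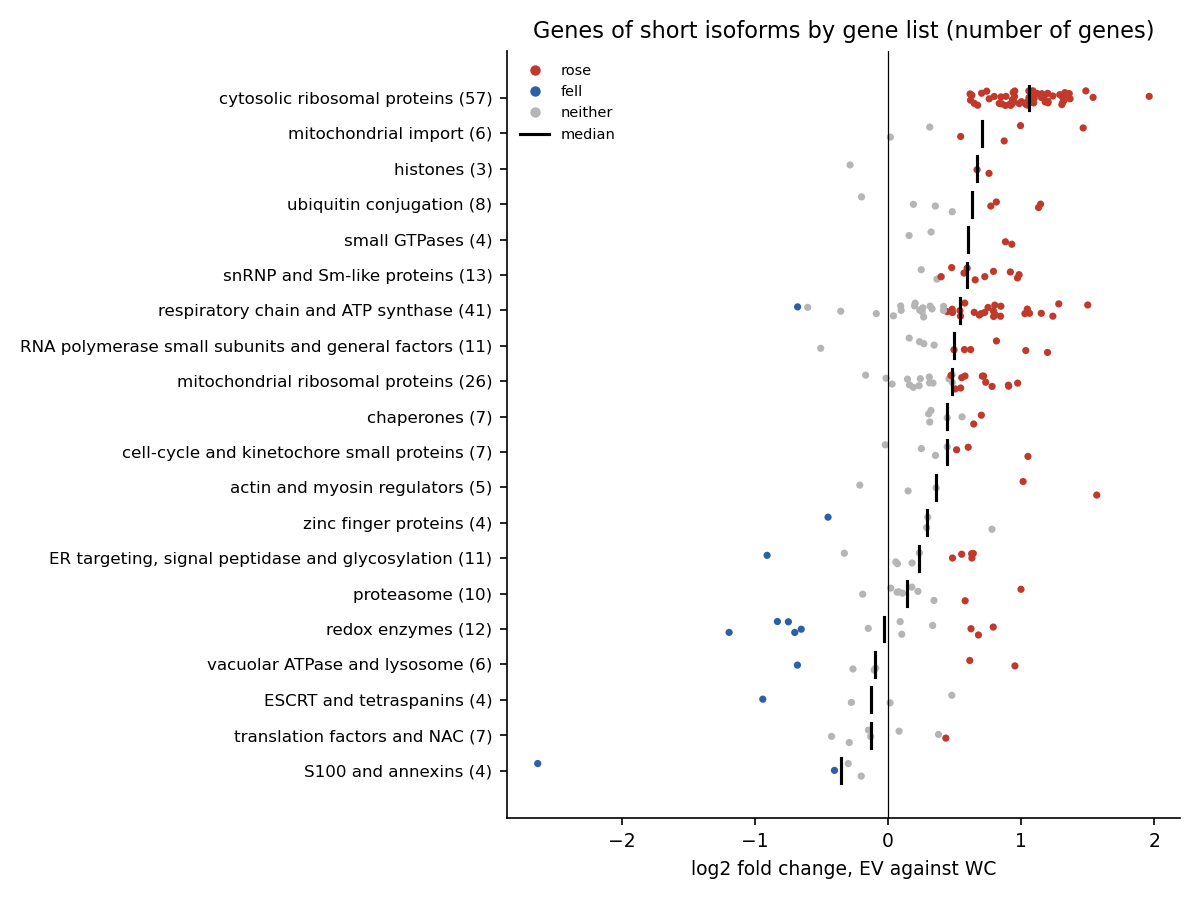
Log2 fold change in EVs against WC (horizontal axis, TMM scale) of the well-counted genes in each gene list with at least 3 genes, with the number of genes in brackets, points coloured by call and a bar at the median. The 57 ribosomal protein genes all lie right of 0, redox enzymes spread to both sides, and the 4 S100 genes lie left of 0.

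Among redox enzymes more genes fell than rose. Of 12 genes 3 rose and 5 fell, with a median of -0.03 (0 rose and 7 fell by total counts, median -0.68). Thioredoxin TXN, at 528 nt, had 346, 323 and 315 CPM in WC and 565, 509 and 626 CPM in EVs (log2 fold change 0.79, SE 0.15), and superoxide dismutase SOD1 at 879 nt rose by 0.68, while by total counts both lost their calls (0.13 and 0.02). The genes that fell were GLRX by 1.20, MGST1 by 0.83, MGST2 by 0.75, PRDX4 by 0.70 and GSTO1 by 0.65 on the log2 scale, and they were named after their values were seen. MGST1 and MGST2 encode glutathione transferases of membranes, PRDX4 is a peroxiredoxin of the ER, and GLRX, the cytosolic glutaredoxin, had only 9 reads in the EV libraries.

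Genes that fell in EVs were few below 600 nt. The 3 well-counted ones were POLR2J3, S100A4 and S100A11, and the other 36 lay between 600 and 1000 nt. S100A4, a calcium-binding protein that acts on myosin and motility, had 30.9, 31.7 and 19.5 CPM in WC and 6.86, 2.31 and 2.28 CPM in EVs, a log2 fold change of -2.63 (SE 0.47, edgeR adjusted p = 5.16e-05) from 281 and 7 reads. G0S2, an inhibitor of triglyceride lipase, had 178, 167 and 168 CPM in WC and 35.7, 34.7 and 34.2 CPM in EVs at 876 nt, a log2 fold change of -2.29 (SE 0.21, edgeR adjusted p = 2.17e-09). Both were several times lower in every EV library than in any WC library. POLR2J3, with the largest fall of 4.04 on the log2 scale, shares 94.5% of its exon bases with another gene and belongs to a family of near-identical copies, and ORAI3, a calcium channel subunit that fell by 2.09, shares 44.1% and lost its call without EV replicate 1 (edgeR adjusted p = 0.0607), so both values are uncertain.

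Of the 39 genes that fell 27 stand in no list. TIMP1, B2M and CST3 among them were named after their values were seen. TIMP1, a secreted inhibitor of metalloproteases, had 1022, 884 and 741 CPM in WC and 325, 312 and 288 CPM in EVs at 755 nt, a log2 fold change of -1.51 (SE 0.15, edgeR adjusted p = 1.37e-08). B2M, the light chain of class I histocompatibility molecules, had 596, 643 and 566 CPM in WC and 317, 321 and 297 CPM in EVs at 941 nt (-0.95, SE 0.15). CST3, the secreted protease inhibitor cystatin C, had 69.4, 56.7 and 72.1 CPM in WC and 35.7, 18.5 and 20.5 CPM in EVs at 783 nt (-1.32, SE 0.26). None of the 3 overlapped between groups. The trypsinogen PRSS2 fell by 1.37, the membrane protein TMEM160 by 1.75 and FLYWCH2 by 1.94 on the log2 scale, the last 2 on 9 and 6 reads in the EV libraries. Of 285 well-counted genes in no list 69 rose (24.2%) and 27 fell (9.47%), with a median of 0.15, against 88 and 12 of 193 genes in a list other than ribosomal proteins.

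The same length did not mean the same behaviour. The 5 pairs of a gene that rose and a gene that fell within 10 nt of each other that had the highest summed CPM are given as a description, since opposite calls chose them. They were matched by length and not by mean CPM, which was also correlated with the fold change (rho 0.45). RPS12 (503 nt), of the small ribosomal subunit, had 4106, 3594 and 3513 CPM in WC and 8278, 9328 and 9812 CPM in EVs (log2 fold change 1.29), while S100A4 (509 nt) fell by 2.63. RPS13 (565 nt) had 2969, 2666 and 2443 CPM in WC and 4147, 5701 and 5700.3 CPM in EVs (0.94). S100A11 (563 nt), a calcium-binding protein of the cell cortex, had 561.6, 536 and 466 CPM in WC and 365, 382 and 438 CPM in EVs (-0.40, SE 0.15, edgeR adjusted p = 0.0314). With the replicate number as a block, which pairs the cells and vesicles of a culture, its adjusted p was 0.0576, and without EV replicate 2 it was 0.106. Of the 4 S100 genes 0 rose and 2 fell, and S100P (-0.30) and S100A6 (-0.20, named to complete the list) passed neither test. By total counts 0 rose and 4 fell.

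The other 3 pairs lay above 600 nt. RPS29 (675 nt) had 2653, 2404 and 2284 CPM in WC and 5111, 6615 and 6716 CPM in EVs (log2 fold change 1.33), while CYBA (669 nt), the p22 subunit of NADPH oxidase, had 113, 114 and 100.0 CPM in WC and 27.4, 53.2 and 22.8 CPM in EVs (-1.70). FTL (871 nt), the ferritin light chain that stores iron, had 5002, 4478 and 3567 CPM in WC and 6944, 6952 and 7027 CPM in EVs (0.68, SE 0.12, and 0.03 by total counts). CD63 (876 nt), a tetraspanin widely used as a protein marker of vesicles, had 319, 313 and 305 CPM in WC and 202, 148 and 130.1 CPM in EVs (-0.94, SE 0.18). The mRNA of this vesicle protein was lower in every EV library than in any WC library. RPS3 (825 nt) had 3118, 2734 and 2532 CPM in WC and 4936, 4468 and 4604 CPM in EVs (0.74, and 0.09 with an edgeR adjusted p of 0.441 by total counts), and the neuropeptide gene NMU (816 nt) had 281, 234 and 259 CPM in WC and 156, 187 and 155 CPM in EVs (-0.64).

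**Figure D5:**
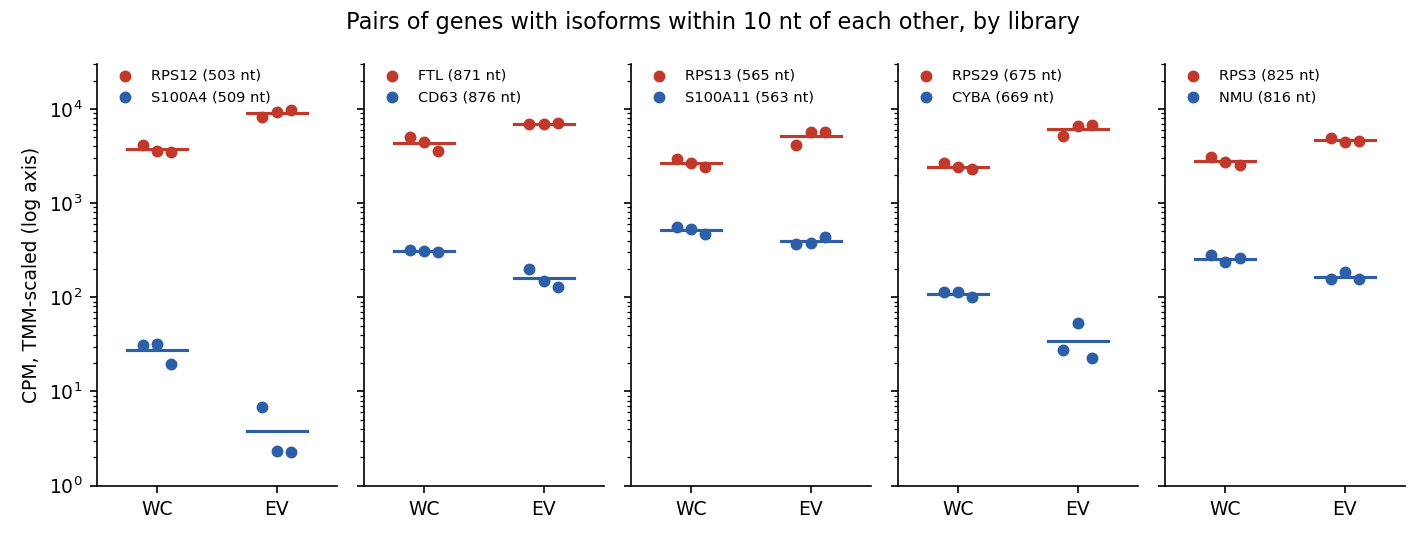
TMM-scaled CPM (vertical log axis) of 5 pairs of genes with isoforms within 10 nt of each other, as points for the 3 WC and 3 EV libraries with a bar at the mean. Each gene in red, 4 ribosomal proteins and FTL, is higher in all EV than in all WC libraries, and each gene in blue is lower in all EV libraries.

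Other short mRNAs with high CPM passed neither test. LGALS1 (507 nt), the lectin galectin-1, had 667, 609 and 551 CPM in WC and 586, 685 and 641 CPM in EVs (log2 fold change 0.06, SE 0.14, edgeR adjusted p = 0.745), although it differs by only 4 nt from RPS12. PRDX6 (890 nt), a peroxiredoxin, had 445, 409 and 353 CPM in WC and 422, 416 and 445 CPM in EVs (0.09, edgeR adjusted p = 0.652). Both groups overlapped in these genes. By total counts both genes fell, with log2 fold changes of -0.60 and -0.57 (edgeR adjusted p = 0.000293 and 0.00105). GYPC (992 nt), the glycophorin of the red cell membrane, had 736, 686 and 895 CPM in WC and 489.7, 1390.0 and 1456 CPM in EVs, with EV replicate 1 apart from the others (0.52, edgeR adjusted p = 0.412).

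In the longest bin the genes that rose most were not ribosomal. The anaphase-promoting complex subunit CDC26 (848 nt) had 21.6, 27.8 and 22.1 CPM in WC and 57.6, 55.5 and 68.5 CPM in EVs, a log2 fold change of 1.33 (SE 0.22, edgeR adjusted p = 2.99e-05). The calcium-binding protein SRI (828 nt) rose by 1.15 (0.50, call lost, by total counts) and the ubiquitin-conjugating enzyme UBE2B (983 nt) by 1.15, the second with 43.6, 42.1 and 51.5 CPM in WC and 78.2, 102 and 130.1 CPM in EVs. GAGE12E (560 nt) and PAGE1 (659 nt), cancer-testis antigens of the X chromosome, rose by 1.80 and 1.96. GAGE12E is 1 of several near-identical copies and its gene count far exceeded its isoform level, so its value is uncertain.

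TOP-like starts were common among the ribosomal proteins and rare elsewhere. Among well-counted genes with a RefSeq start, 30 of 48 ribosomal protein genes (62.5%, all 48 of which rose) and 22 of 397 other genes (5.54%) began with C and at least 4 further C or T, as in RPS27 and TOMM7 above, against 1104 of 27305 RefSeq starts (4.04%) and 6.47% of the genes of longer isoforms. Of the 22 other genes 14 rose and 0 fell (median 0.50 on the log2 scale), and of the 375 without the run 116 rose and 32 fell, with a median of 0.24. At 400 to under 600 nt these were 6 of 7 against 48 of 82 that rose, at 600 to under 800 nt 4 of 8 against 46 of 128, and at 800 to under 1000 nt 3 of 6 against 15 of 154. None of the 32 genes that fell and had a RefSeq start began with the run, beside the low share of 5.54% over all 397. LSM8 is 1 of 8 genes with it that passed neither test. These counts rest on a single RefSeq start for each gene symbol, so a gene with the run at another start is counted as without it. The RefSeq start need not be the start used in K562 cells, and only 18 of 57 ribosomal protein models and 14 of 478 others begin with such a run in the isoform models themselves.

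Medians of other features of the isoform are given as a description without ribosomal proteins. The median length was 609 nt for 157 genes that rose, 806 nt for 282 that passed neither test and 852 nt for 39 that fell, the median 3′ UTR was 152, 182 and 244 nt, and the median GC content was 47.5%, 49.9% and 52.9%. The groups differ in length, and at equal length the 3′ UTR showed no such order, with 208, 177 and 190 nt at 600 to under 800 nt and 260, 228 and 264 nt at 800 to under 1000 nt. Median exon number was 4, 5 and 5. The codons with T at the second base encode hydrophobic residues, and a window of 20 codons with at least 11 of them was found in 23 (14.7%), 61 (21.7%) and 11 (28.2%) of these genes. By length the order was not the same: it was found in 12 of 67 genes that rose, 9 of 40 that passed neither test and 0 of 3 that fell at 400 to under 600 nt, in 7 of 56, 24 of 92 and 2 of 12 at 600 to under 800 nt, and in 2 of 26, 28 of 144 and 9 of 24 at 800 to under 1000 nt. Of the longer genes 38.2% hold such a window. This codon measure was chosen after the falling genes had been seen, and it is no search for signal peptides.

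As shares of all gene counts, ribosomal protein mRNAs took up more of the EV libraries and the other short mRNAs together took up less. Well-counted short genes held 21.7% ± 0.746 (SD, n = 3) of counts in WC and 24.96% ± 0.740 in EVs. Their ribosomal protein genes went from 13.3% ± 0.441 to 17.7% ± 0.621, while the other short genes went from 8.41% ± 0.305 to 7.30% ± 0.129 and longer genes from 17.2% ± 0.676 to 10.98% ± 1.16. No 2 groups overlapped, and each exact two-sided permutation test gave p = 0.1, the smallest that 3 libraries against 3 allow. Among the other short genes the share was 0.192% in WC and 0.235% in EVs below 400 nt, 2.63% and 2.87% at 400 to under 600 nt (exact permutation p = 0.2), 3.06% and 2.31% at 600 to under 800 nt, and 2.54% and 1.89% at 800 to under 1000 nt. A share of all counts is the total-count scale, and it sums genes that moved both ways: of the other genes of 600 to under 800 nt and of 800 nt or more, 56 of 161 and 26 of 194 rose on the TMM scale.

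The 86 genes in which short isoforms held less than 50% of the isoform level were left out of these counts. Of them 75 were tested, and with them 302 of 691 genes rose and 46 fell. RPS2, a small-subunit ribosomal protein whose short isoforms held 3.35% of its level, rose by 0.49 on the log2 scale (SE 0.13) and was chosen after its value was seen. Of the 170 untested genes of the main set 157 had gene counts below 50% of the isoform level, with a median of 1.98% over the 170, so that the absence of a call says nothing about those mRNAs.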

How the data were processed

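K562 cells (WC) and their extracellular vesicles (EV) were each read in 3 libraries, and groups follow the sample titles. The authors mapped nanopore PCR-cDNA reads with minimap2 to GRCh38, and the deposited raw counts per gene come from featureCounts in long-read mode, 1 column for each library. The strand setting and the treatment of reads with several matches are not given in the sources used here. The deposited isoform level is a signal, the authors' mean over 6 libraries of FLAIR reads divided by DESeq2 size factors. Deposited columns with the authors' own fold changes and p-values of EV against WC were not used. The count table had 68247 lines for 68201 genes, since 46 IDs stand on 2 lines.

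The test was that of edgeR 4.0.16 under R 4.3.3 (filterByExpr, TMM with factors of 1.20 to 1.31 for WC and 0.76 to 0.84 for EVs, robust quasi-likelihood fit, common dispersion 0.0184, Benjamini-Hochberg adjustment over 8716 genes). The SE of a log2 fold change was derived from the F statistic, and intervals of counts were not computed, so depth enters through the fit. The test was first tested on simulated data made from these counts, with the common dispersion for every gene. For each size 100 genes were changed, as many up as down. The measured genes need not share these settings, so their recovery can differ. The test called 42 of 93 genes given a log2 fold change of 1 in size and 77 of 94 given 2. Of 7952 genes given no change it called 7. A gene that passed neither test is therefore not shown to be unchanged. Exon overlap and annotated length came from GENCODE v44, which is later than the authors' annotation, and start sequences from RefSeq (300 bases around each start in GRCh38.p14, start at base 251), where 725 of 872 gene symbols matched. Coding frames of minus-strand models were extended by the 3 nt that the models leave out, and 99.8% then began with ATG. Gene counts were divided by median-of-ratios size factors to be set beside the isoform level. Alternatives were RLE and total-count scaling, DESeq2 1.42.0, no filter, thinned WC libraries, each library left out, other shares of short isoforms and no ribosomal proteins. Tables and figures were made with pandas 2.3.3, numpy 2.4.6, matplotlib 3.10.9 and scipy 1.17.1 under Python 3.11.15.

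Named genes were, in each length bin, the 3 that rose most, the 3 that fell most and the 2 with the highest CPM that passed neither test, the 2 with the highest CPM in each list, and 5 pairs within 10 nt of each other, and the rule was applied again to the well-counted genes (84 genes). Members and lists were chosen with earlier results of these data known. WC and EV of a replicate came from the same flasks and shared a flow cell per the methods, so the replicate numbers pair them. Their deviations from the group means correlated at 0.062, 0.024 and 0.004 across genes. Of the genes with a high isoform level and no gene count 1 is not reported here.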

Additional observations from a re-analysis of the deposited data

Results flagged for a closer look

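Among the genes of short isoforms with no read in any library, those with high isoform levels are given here, 16 genes. FLAIR gave their isoforms an authors' mean of at least 100.8 reads over the libraries, scaled by size factors, while the gene table listed them at 0 in all 6 libraries, and EVs were not compared with WC for them. Ribosomal proteins had the highest of these levels, with 8236 for RPS18, 5815 for RPS25, 1291 for RPL7A and 106.9 for RPS9. Other named genes were the initiation factor subunit EIF3K (732.2), the ATP synthase inhibitor ATP5IF1 (412.4), TMEM14C (148.8), the proteasome activator PSME2 (134.5), the RNase P subunit RPP21 (131.4), the import subunit TOMM6 (131.1) and C11orf98 (100.8). Readthrough or host genes were RPL17-C18orf32 (416.8), SNHG32 (392.1) and MICOS10-NBL1 (321.7), and 2 genes without a symbol in the annotation used here, ENSG00000284931 and ENSG00000167774, had 1370 and 123.1. Of the 16 gene IDs 10 lie on alternate or patch sequences outside the primary chromosomes, and for 9 of these 10 symbols another gene ID held reads, such as 52337 in WC and 19320 in EVs for RPS18 and 16039 and 3975 for RPL7A. The other 6 lie on primary chromosomes with at least 97.9% of their exon bases in another gene. How reads were shared between these IDs was not tested.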

How the results depend on the processing

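RLE scaling, DESeq2, the replicate block and each library left out kept the 4 counts of calls within 1.5 times of those of the 616 genes and the sign of the median, over 749 genes for DESeq2 and 572 to 652 with a library left out. With the replicate block 261 rose, 37 fell, 27 were enriched in EVs and 4 in WC, and of the 84 named genes only S100A11 lost its call. Leaving out a library gave 208 to 273 that rose, 33 to 44 that fell, 20 to 29 enriched in EVs, 4 to 5 in WC and medians of 0.328 to 0.450. Total-count scaling gave 106 that rose, 198 that fell, 16 enriched in EVs, 11 in WC and a median of -0.222. Without the filter on low counts the median was 0.206, with WC libraries thinned to EV depth 12 genes were enriched in EVs, and with short isoforms at 80% or more of the level 25 fell. Settings chosen after seeing the data gave 3 enriched in EVs among well-counted genes, 179 that rose where the annotated transcript is also short, and 2 enriched in EVs and 2 in WC where no exon is shared. Well-counted genes under total-count scaling gave 69 that rose, 195 that fell, 2 and 10 enriched and a median of -0.303. Several of these settings test fewer genes (517 when thinned, 475 at 80% or more, 377 with a short annotated transcript, 496 without a shared exon, 535 well counted), and the cause of the other moves was not tested. The median below 600 nt exceeded that at 800 to under 1000 nt by 0.66, and in every alternative run the sign was kept.

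Of 990 values of named genes under alternatives 906 kept their call, but under total-count scaling only 47 of 84 did. Total-count scaling turned the sign of 22. GYPC, ZCCHC10 and HSPB1 (-0.171, -0.361 and -0.34) passed no test on either scale, and the others were C4orf48 -0.624, LGALS1 -0.596, TMSB10 -0.304, PPIA -0.35, PRDX6 -0.566, MRPS21 -0.105, MRPS36 -0.188, PSMB1 -0.0722, UBE2L3 -0.465, H2BC11 -0.000457, POLR2K -0.0461, BTF3 -0.217, SRP14 -0.0373, TMEM258 -0.0195, VPS29 -0.635, RAB11A -0.496, BANF1 -0.41, ANAPC11 -0.409 and LSM8 -0.415. Of the others C4orf48, LGALS1, TMSB10, PPIA, PRDX6, UBE2L3, VPS29, RAB11A, BANF1, ANAPC11 and LSM8 fell on that scale. The rest of them lost their calls. Total-count scaling also ended the calls of 12 genes that kept their sign: UQCRH, ROMO1, HBA2, SNRPG, SNRPD2, SOD1, TXN, RAB31, HMGN3, FTL, RPS3 and SRI. A further 6 genes that passed neither test on the TMM scale fell by total counts. They were EIF1 (-0.807), TMSB4X (-0.866), GABARAPL2 (-0.935), H2AZ2 (-0.961), S100P (-0.964) and PTTG1 (-0.686). Depth limits the low genes, since EV libraries hold 7 reads of S100A4 and 6 of FLYWCH2.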
